A study of Mus musculus with 18 samples.

Results

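The genes described here are those measured when p53 was switched back on in Type D small cell lung cancer (SCLC) cells that carried a guide against Ppia, sgPpia#3.2. A gene was taken if it reached at least 1 TPM (a read count scaled for transcript length and for the library's total) in 3 or more of the 6 sgPpia#3.2 samples, which gave 11901 of the 25239 genes in the table. Of these, 10671 were at or above 1 TPM in all 6 samples. The lowest of the third-highest values among the genes taken was 1.00 TPM and the highest among the genes left out was 0.999 TPM. Because the rule reads both groups, 97 genes reached 1 TPM in all 3 Restored and 0 Control samples, and 17 in all 3 Control and 0 Restored samples. Such genes are said below to have qualified through 1 group alone. These had to differ, so their counts carry no weight, and those named below for their change (Eda2r, Wnt9a, St14, Psmb9, Cd80, Ms4a10, Nectin4, Mycl and Cxcl2) are given as values without a test. Saa3, named below for a difference between guides, was another. Other genes, such as Tap1, Sytl1, Ddit4l, Inka2, Ces2e, Lilr4b, Mmp15, Notch1, Ifit3 and Il18, reached 1 TPM in fewer than 3 Control samples. They needed Restored samples to qualify, as Hpgd needed Control samples. That selection favours a difference, and such genes keep their tests and stay in all the counts below.

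The study asked how p53 suppresses SCLC, and reported that restoring it brought senescence in some tumors and lines and necrosis in others. Each of 3 mouse cell lines, 4711-1, 4711-18 and 4716-11, received Cas9 with sgBgal (a guide against a bacterial gene), sgPpia#3.2 or sgPpia#4.1, and each was then given ethanol vehicle (Control) or 500 nM 4-hydroxytamoxifen (4-OHT) for 72 h (Restored). That gave 6 conditions with 3 samples each, 1 per line, and messenger RNA was sequenced in all 18. Every line came from a tumor of a mouse of mixed background that was Rosa26 FlpO-ER and Trp53 XTR/XTR and carried flox/flox alleles of both Rb1 and Rbl2. Tumors were started with an adenovirus that makes Cre under the CMV promoter, so Rb1 and Rbl2 had been targeted in all groups. Cre also flips a gene trap in the XTR allele into the orientation that blocks Trp53, and 4-OHT then turns on FlpO-ER, which cuts the trap out. The Control and Restored samples therefore differ in 4-OHT as well as in p53, and the effect of the drug itself cannot be told apart from that of p53. The paper does not say whether the guide-treated cells were pools or clones. Lines 4711-1 and 4711-18 share the first number of their names. Whether these came from the same mouse is not given in the sources used here, so n = 3 counts lines and not animals. Type D is the study's name for lines that lyse within days of restoration.

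The p53 protein is a transcription factor that binds a pair of short DNA half-sites and raises genes for its own control, cell cycle arrest, cell death, metabolism and DNA repair. One of its targets, the kinase inhibitor p21 (Cdkn1a), restrains cyclin-dependent kinases, after which genes of cell division are shut down through the RB family and the DREAM complex. Ppia encodes cyclophilin A, an abundant peptidyl-prolyl isomerase. Its relative cyclophilin D (Ppif) regulates the mitochondrial permeability transition pore.

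The cells were high in RNA of the epithelial markers Krt8, Krt18 and Cdh1 but not of Epcam, and lacked several neuroendocrine markers of SCLC. Krt8 lay between 2418 and 8136 TPM, Krt18 between 2521 and 7084 TPM and Cdh1 between 334.2 and 631.9 TPM in the 6 samples. Epcam did not exceed 1.97 TPM, and Calca, Chga and Dll3 did not exceed 0.124 TPM. Ncam1 was present at 11.5 to 19.97 TPM, Syp at 3.03 to 6.12 TPM and Insm1 above 1 TPM in line 4711-1 alone. The leukocyte markers (Ptprc, Cd3e, Adgre1) stayed at or below 0.159 TPM, those of fibroblasts at or below 0.918 TPM, and hemoglobin genes were at 0 in every sample. TPM hold no total count, so the depth is unknown. From the steps between low values, the 3 Control samples were 1.18 to 1.78 times and the 3 Restored samples 1.30 to 1.65 times as deep as the shallowest of the 18 libraries. One library stood apart from its group. In the sgPpia#3.2 Control sample of line 4711-18, the summed level of 47 mitosis genes was 2287 TPM, whereas the other 8 Control libraries of the study had 3425 to 5316 TPM, and Cdkn1a was at 369.2 TPM against 99.4 to 170.6 TPM. The summed level of 46 DNA replication genes was 3588 TPM there and 5021 to 7127 TPM in the others. Trp53 itself was not higher in that sample, at 5.45 TPM. Its part in the results was not tested, and counts without line 4711-18 are given below for each group of genes.

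Trp53 was restored in all 3 lines. In the order 4711-1, 4711-18 and 4716-11, which is kept throughout, its level was 6.69, 5.45 and 7.10 TPM in Control and 212.9, 181.0 and 235.9 TPM in Restored samples. The log2 fold change was 4.83 ± 0.13 (n = 3 lines), with an adjusted p of 1.17e-10 in limma. The 3 lines differed by less than 0.1 on that scale. Here and below, ± after a log2 fold change is the SE of the limma fit to all 18 samples. It is not the spread over the 3 sgPpia#3.2 lines, which for Trp53 had an SD of 0.037. Ppia was at 1073, 657.6 and 1207 TPM in Control and 872.9, 768.8 and 1233 TPM in Restored samples. The groups overlapped and the log2 fold change of -0.01 ± 0.15 did not pass the test (adjusted p = 0.95). With sgBgal, Ppia was at 2709 ± 137 TPM (SD, n = 3) in Control samples, above every sgPpia#3.2 sample. Rb1, chosen after its values were seen because the model targets it, was at 3.36, 9.44 and 4.03 TPM in Control and 15.7, 30.8 and 14.6 TPM in Restored samples. It rose by 1.72 ± 0.15 (adjusted p = 2.72e-06). Reads outside the deleted part of a floxed gene are counted too, so its level does not check the deletion.

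Restoration raised more genes than it lowered. A gene was called when its adjusted p was under 0.05 and its log2 fold change, on the log2(TPM + 1) scale that understates the change of low genes, was at least 1 in size. By that rule 792 genes rose (6.65% of the 11901) and 275 fell (2.31%). Of these, 69 that rose and 9 that fell had qualified through 1 group alone, and without such genes 723 of 11787 rose (6.13%) and 266 fell (2.26%). All but 4 of the 1067 moved the same way in all 3 lines. The lowest Restored sample lay above the highest Control sample for 2330 genes (19.6%), and the reverse held for 904 (7.60%). Among called genes the groups did not overlap for 666 that rose and 208 that fell. The largest rises were steeper than the largest falls: 158 genes rose and 53 fell by at least 2 on the log2 scale, and 16 rose but 0 fell by at least 4. Summed over the genes called up, the mean level went from 23650 to 78750 TPM, and over those called down from 20810 to 7225 TPM.

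The typical gene moved up slightly. Over the 11901 genes the log2 fold changes had a median of 0.17, and rescaling the samples by median-of-ratios factors moved it to -0.01. TPM are shares of a fixed total, so group medians below are read against 0.17. After that rescaling 568 genes were called up and 397 down, a share of rises of 58.9% against 74.2% as deposited. Cell line was a block in the fit, and without this pairing 562 were called up and 166 down. In bulk RNA, a lower level through fewer cells expressing a gene cannot be told apart from less RNA per cell.

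**Figure D1:**
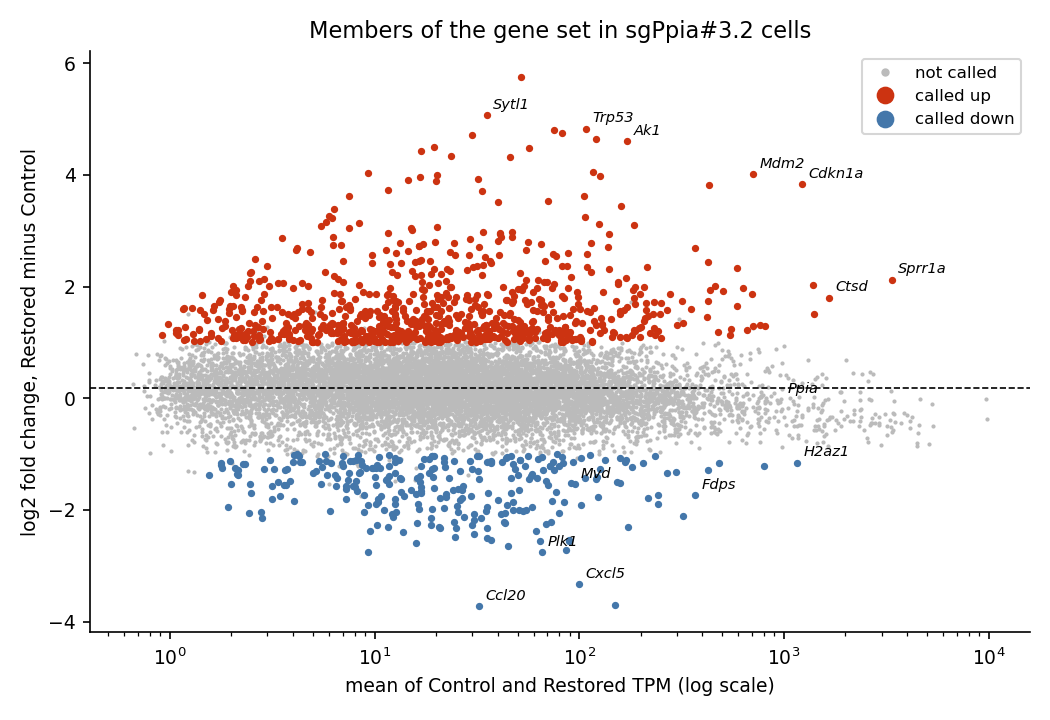
Log2 fold change (Restored minus Control, log2(TPM + 1) scale) of the 11901 genes against the mean of the Control and Restored TPM on a log axis. Red points are the 792 genes called up, blue points the 275 called down, grey points the rest, and the dashed line is the median of 0.17. Cdkn1a and Mdm2 lie among the most abundant strong rises, and Ppia lies near 0.

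Genes that act back on p53 rose in part. Of the 10 measured, 6 were called up (60.0%, against 6.65% of all genes) and 0 down, and their median was 1.38 against 0.17 for all genes. Mdm2, the ligase that marks p53 for destruction, was at 83.6, 95.7 and 64.4 TPM in Control and 1591, 1332 and 1072 TPM in Restored samples. Every Restored sample was above every Control sample, and the log2 fold change was 4.02 ± 0.17 (adjusted p = 3.58e-09). Ccng1 (cyclin G1), an early known p53 target, went from 58.4, 56.4 and 52.8 TPM to 663.4, 981.9 and 780.9 TPM, a rise of 3.81 ± 0.13 (adjusted p = 1.03e-09). Mdm4, which holds p53 inactive beside Mdm2, rose by 1.81 ± 0.22, and Zmat3, an RNA-binding protein, by 2.85 ± 0.10. Without line 4711-18 the count stayed at 6 up and the median was 1.33.

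Arrest genes rose in part. Of 12 measured, 4 rose (33.3%, against 6.65% of all genes) and 0 fell, with a median of 0.82, and without line 4711-18 again 4 rose with a median of 1.01. Cdkn1a was at 99.4, 369.2 and 101.5 TPM in Control and 1892, 2780 and 2124 TPM in Restored samples, a rise of 3.84 ± 0.25 (adjusted p = 2.58e-07). The 4711-18 Control sample was the highest of its group, and without that line the change was 4.31 (adjusted p = 2.42e-05). Psrc1, a microtubule-associated protein, rose by 3.63 ± 0.17, from 9.56, 31.2 and 8.44 TPM to 165.1, 303.8 and 118.7 TPM. Gtse1, which binds p53 and microtubules, rose by 3.10 ± 0.31. Its levels went from 52.0, 23.1 and 44.1 TPM to 302.3, 322.0 and 365.7 TPM, although many genes of cell division fell. Plk2, a polo-like kinase, was only just called at 1.95 ± 0.71 (adjusted p = 0.0498), its groups overlapped, and the call was lost without the block and without line 4711-18 (adjusted p = 0.11 in both), as it was after rescaling and without line 4716-11.

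Death genes held the highest share of rises among the p53 groups. Of 20 measured, 15 rose (75.0%, against 6.65% of all genes) and 1 fell (5%, against 2.31%), with a median of 2.08. Fas, a death receptor, was at 1.16, 3.01 and 7.02 TPM in Control and 43.0, 96.3 and 125.9 TPM in Restored samples. The groups were far apart, and the log2 fold change was 4.31 ± 0.30 (adjusted p = 4.22e-07). Pidd1, the scaffold of the PIDDosome, rose from 6.89, 4.57 and 5.51 TPM to 83.0, 65.2 and 74.8 TPM, by 3.51 ± 0.20. Trp53inp1, a stress-induced nuclear protein, rose by 3.25 ± 0.29. Eda2r, the receptor of ectodysplasin A2, was under 1 TPM in each Control sample and at 19.2, 10.03 and 6.42 TPM in Restored samples, and without it 14 of 19 rose. The exception was Bok, a pore-forming BCL2 relative named here because it alone fell: it went from 233.6, 175.8 and 270.3 TPM to 133.8, 53.8 and 141.0 TPM, a change of -1.14 ± 0.22 (adjusted p = 0.0017). Without line 4711-18, 15 rose and 0 fell, since the estimate for Bok was then -0.87, and its call was also lost without the block.

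Metabolic and repair targets rose in part. Of 23 metabolic targets 10 rose (43.5%, against 6.65% of all genes) and 0 fell, with a median of 0.84. Of 12 repair targets 4 rose (33.3%) and 0 fell, with a median of 0.46. Ak1, an adenylate kinase, went from 9.48, 22.2 and 7.90 TPM to 236.1, 489.1 and 263.7 TPM, by 4.60 ± 0.17 (adjusted p = 1.03e-09). Ddit4l, an inhibitor of mTOR signalling, rose by 4.34 ± 0.23 and Slc19a2, a thiamine transporter, by 2.79 ± 0.17. Sesn2, a sestrin that senses leucine, was at 9.01, 37.8 and 6.93 TPM in Control and 109.5, 86.1 and 80.1 TPM in Restored samples, and rose by 2.66 ± 0.45. Its Control value in 4711-18 was the highest of the group, and without that line the change was 3.41. Ercc5, a nuclease of nucleotide excision repair, rose by 2.98 ± 0.15, from 9.01, 9.26 and 10.8 TPM to 69.7, 95.4 and 87.0 TPM. Polk (a translesion polymerase) rose by 2.53 ± 0.28, Ctc1 (a telomere protein) by 1.59 ± 0.12 and Rev1 (a translesion enzyme) by 1.58 ± 0.14. Without line 4711-18, 11 metabolic and 4 repair targets were called up, and without 4716-11 the call of Sesn2 was lost.

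**Figure D2:**
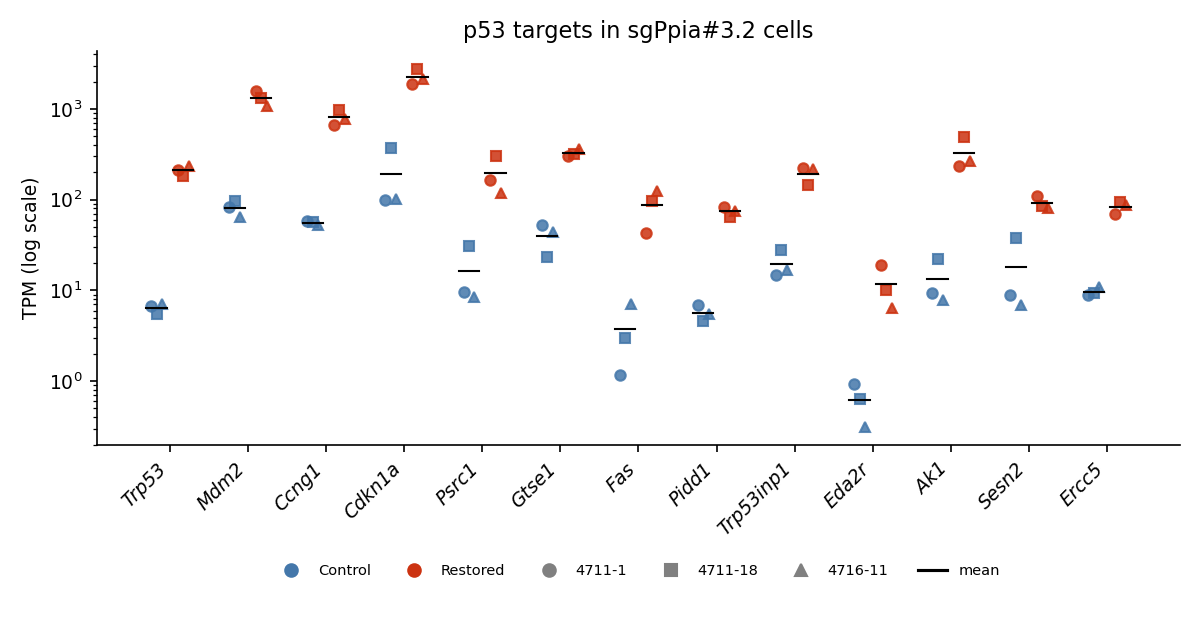
TPM (log axis) of Trp53 and 12 p53 targets in the 6 sgPpia#3.2 samples. Each symbol is 1 sample, its shape gives the cell line, blue is Control, red is Restored and the bar is the mean of 3 lines. In each gene shown the Restored samples lie above the Control samples, and the blue square of 4711-18 is the highest Control value for Cdkn1a, Psrc1, Ak1, Sesn2 and others.

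Promoter sequence bears on these groups because p53 acts by binding DNA. RefSeq gives the bases before the start of 9396 of the 11901 genes (GRCm38.p6). In the 250 bases before a start, the p53 half-site consensus, which reads the same on both strands, was found for 9.97% of the 622 genes called up that have an entry, 7.22% of all 9396 and 8.2% of all 27025 RefSeq symbols. A pair of half-sites no more than 13 bases apart occurred for 4 of the 9396 genes, and Cdkn1a was the only one of them called up. A gene with more than 1 start was counted if any start had the match. The 2 stretches below show these matches in the strong p53 targets Cdkn1a (chr17:29090729-29090978, + strand) and Ccng1 (chr11:40755287-40755536, - strand). Of the 2 RefSeq starts of Cdkn1a, the printed one was chosen by its number of matches. The stretches run 5′ to 3′ up to the base before the start, with half-sites in capitals.
Cdkn1a: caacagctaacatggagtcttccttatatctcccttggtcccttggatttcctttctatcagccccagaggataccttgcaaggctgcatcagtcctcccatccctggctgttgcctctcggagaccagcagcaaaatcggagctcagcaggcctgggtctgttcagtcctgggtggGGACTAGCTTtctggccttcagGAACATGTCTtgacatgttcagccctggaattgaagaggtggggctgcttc
Ccng1: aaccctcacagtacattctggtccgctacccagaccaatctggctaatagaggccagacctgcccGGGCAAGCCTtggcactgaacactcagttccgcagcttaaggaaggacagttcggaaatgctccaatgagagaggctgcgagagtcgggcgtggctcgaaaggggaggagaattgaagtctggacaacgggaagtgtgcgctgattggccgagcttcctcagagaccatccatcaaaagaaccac
In Cdkn1a the half-sites began 73 and 51 bases before the start, and in Ccng1 the single match began 185 bases before it. These are exact matches of letters, so a neighbouring half-site with a mismatch would be left in lower case. They are not measured binding, and a gene without one may be bound elsewhere.

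Nearly all genes of cell division fell, whereas DNA replication genes had a share of falls near that of all genes. Of 47 mitosis genes 45 fell (95.7%, against 2.31% of all genes) and 0 rose, with a median of -2.03. The summed level of the 47 was 4559, 2287 and 3971 TPM in Control and 1145, 517.6 and 1259 TPM in Restored samples. Both uncalled members, named for that reason, had negative estimates: Spc25, a kinetochore subunit (-0.35 ± 0.27), and Smc2, a condensin subunit (-0.51 ± 0.23). Of 46 DNA replication genes 0 fell and 1 rose in limma, against 2.31% down and 6.65% up of all genes. The share of rises was thus below that of all genes. At an unadjusted p under 0.05, 4 fell and 11 rose. The median of the 46 genes was 0.19, which became -0.01 after median-of-ratios rescaling. Their summed level was 5854, 3588 and 6880 TPM in Control and 6642, 4041 and 8703 TPM in Restored samples. The riser was Ccne1 (cyclin E1), which opens the S phase. It went from 23.5, 20.1 and 34.3 TPM to 48.8, 34.5 and 123.3 TPM, by 1.20 ± 0.30 (adjusted p = 0.0084), and its call was lost without the block (adjusted p = 0.18). Leaving out 1 line gave 0 replication genes called up without 4711-1, 2 without 4711-18 and 0 without 4716-11.

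Plk1, the mitotic polo-like kinase, fell most among the mitosis genes. It was at 145.4, 52.99 and 141.1 TPM in Control and 19.9, 4.67 and 29.5 TPM in Restored samples, a change of -2.76 ± 0.50 (adjusted p = 0.0012). Cyclin B2 (Ccnb2) went from 180.6, 84.4 and 171.2 TPM to 29.9, 5.72 and 43.7 TPM, by -2.72 ± 0.50. Aurkb, the kinase of the chromosomal passenger complex, changed by -2.64 ± 0.43 and Ccnb1 (cyclin B1) by -2.54 ± 0.50. In both groups line 4711-18 was the lowest of the lines for all 4 genes, and the groups still did not overlap. By line the median change of the 47 was -1.97, -2.48 and -1.61. Without line 4711-18, 45 were again called down with a median of -1.81.

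CCAAT, the site of the factor NF-Y, is common before genes of cell division. Here CCAAT on either strand lay within 250 bases of the start for 31 of the 40 mitosis genes with an entry (77.5%), 23 of 37 DNA replication genes (62.2%), 52.1% of genes called down, 39.9% of genes called up and 41.0% of all 9396 genes. A pair of neighbouring CCAAT 31 to 34 bases apart lay before 8 of the 40 mitosis genes, 2 of 37 replication genes and 2.15% of all. The letters TTTGAA on either strand, the cell cycle genes homology region (CHR), were found for 13 of the 40 mitosis genes (32.5%), 6 of 37 replication genes (16.2%) and 12.5% of all. Shares over all 27025 RefSeq symbols were 37.5% for CCAAT and 18.3% for TTTGAA. Ccnb2 (chr9:70421555-70421804, - strand) and Cdca3 (chr6:124829926-124830175, + strand), 2 of the strongest falls, show the spacing, with CCAAT and TTTGAA on either strand in capitals.
Ccnb2: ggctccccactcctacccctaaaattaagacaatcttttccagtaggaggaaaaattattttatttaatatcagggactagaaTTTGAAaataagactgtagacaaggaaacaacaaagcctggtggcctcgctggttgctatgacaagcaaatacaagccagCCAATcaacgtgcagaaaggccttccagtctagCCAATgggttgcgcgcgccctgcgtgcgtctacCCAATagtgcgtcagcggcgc
Cdca3: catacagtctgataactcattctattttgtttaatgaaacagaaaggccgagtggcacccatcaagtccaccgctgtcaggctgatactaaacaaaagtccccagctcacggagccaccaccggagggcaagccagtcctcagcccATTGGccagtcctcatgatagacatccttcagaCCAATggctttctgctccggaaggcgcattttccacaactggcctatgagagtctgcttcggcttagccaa
The 3 CCAAT of Ccnb2 began 87, 54 and 21 bases before the start, each 33 bases from the next, and those of Cdca3 began 104 and 71 bases before it. Cdca3, which triggers mitotic entry, changed by -2.56 ± 0.46, from 178.7, 79.5 and 194.7 TPM to 30.0, 8.90 and 44.4 TPM.

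Sterol synthesis genes fell in part. Of 24 genes 10 fell (41.7%, against 2.31% of all genes) and 0 rose, the median was -0.95, and all 24 had a negative estimate. Fdps, which makes farnesyl diphosphate, was at 482.5, 572.0 and 642.4 TPM in Control and 172.2, 122.1 and 227.7 TPM in Restored samples. The groups did not overlap, and the change was -1.73 ± 0.26 (adjusted p = 3.31e-04). Mvd, the decarboxylase of the mevalonate pathway, went from 121.5, 86.9 and 220.1 TPM to 46.3, 30.4 and 64.5 TPM, by -1.54 ± 0.22. Hmgcs1, which makes HMG-CoA, changed by -1.45 ± 0.24. Cyp51, a sterol demethylase, had the largest estimate at -1.76 ± 0.35, but line 4716-11 was far above the others in both groups (373.8 and 131.0 TPM), so the groups overlapped. Calls of Cyp51 and Mvd were lost without the block (adjusted p = 0.25 and 0.055), when 5 of the 24 were called. Without line 4711-18, 11 fell.

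CCAAT was found before 16 of the 17 sterol genes with an entry (94.1%). Mvd (chr8:122443423-122443672, - strand) is printed because its pair of CCAAT, one on each strand and in capitals, had the same spacing of 33 bases as in Ccnb2 and Cdca3.
Mvd: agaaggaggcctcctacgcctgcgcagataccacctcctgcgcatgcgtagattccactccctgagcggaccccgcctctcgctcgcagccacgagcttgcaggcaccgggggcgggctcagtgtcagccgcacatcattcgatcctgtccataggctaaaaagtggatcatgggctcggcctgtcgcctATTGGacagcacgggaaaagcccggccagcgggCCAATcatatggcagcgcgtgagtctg
Of 14 genes of fatty acid synthesis 3 fell (21.4%, against 2.31% of all genes) and 0 rose, with a median of -0.47, and without line 4711-18 again 3 fell. Elovl6, which lengthens palmitate, went from 21.1, 33.1 and 26.8 TPM to 6.02, 4.86 and 7.15 TPM, by -1.99 ± 0.20 (adjusted p = 1.06e-05). The desaturases Scd2 and Scd1 changed by -1.16 ± 0.30 and -1.10 ± 0.27, and the call of Scd1 was lost without the block (adjusted p = 0.27). Without line 4716-11 neither desaturase was called and 1 of the 14 fell, and without 4711-1 the call of Scd2 was lost.

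Growth factors and cytokines moved both ways. Of 29 measured 10 rose (34.5%, against 6.65% of all genes) and 5 fell (17.2%, against 2.31%), but without the block 5 rose and 2 fell. Over the 26 that had not qualified through 1 group alone, 8 rose and 4 fell. The 5 that fell were all chemokines that draw neutrophils, monocytes or lymphocytes. Ccl20 was at 18.5, 126.2 and 41.7 TPM in Control and 2.05, 3.31 and 2.51 TPM in Restored samples. Its groups did not overlap and the change of -3.72 ± 0.45 (adjusted p = 5.08e-05) was the steepest fall of any called gene with a name. Cxcl5 went from 309.9, 227.2 and 14.3 TPM to 16.9, 28.3 and 1.05 TPM, by -3.33 ± 0.62. It fell in each line, although the level in 4716-11 was so low that the groups overlapped. Cxcl3, outside the list, changed by -3.70 ± 0.57, from 38.9, 485.5 and 307.6 TPM to 2.23, 50.8 and 15.3 TPM. Cxcl1, the most abundant, went from 769.4, 937.6 and 1710 TPM to 429.3, 444.4 and 514.0 TPM. Calls of Cxcl5 and Cxcl1 were lost without the block (adjusted p = 0.22 and 0.086).

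Among those that rose was Gdf15, a stress cytokine and known p53 target, which went from 159.1, 851.3 and 819.5 TPM to 1031, 2335 and 3141 TPM, by 2.03 ± 0.41. Line 4711-1 was lowest in both groups, and the call was lost without the block (adjusted p = 0.28). Wnt9a, a WNT ligand, was under 1 TPM in each Control sample and at 5.79, 13.1 and 5.25 TPM in Restored samples. Of 20 senescence-associated genes 3 rose (15.0%, against 6.65% of all genes) and 6 fell (30.0%, against 2.31%), and 5 of the falls were the same chemokines. Without Cxcl2, which had qualified through the Control samples alone, 3 of 19 rose and 5 fell. Without the block 1 rose and 2 fell, and without line 4711-18 again 3 rose and 6 fell. The matrix metalloproteinases Mmp10 and Mmp3 rose by 2.89 ± 0.29 and 2.60 ± 0.58, Mmp10 from 16.3, 5.97 and 6.33 TPM to 147.2, 31.6 and 74.0 TPM. Mmp3 lost its call without the block (adjusted p = 0.23). Without line 4711-18, 13 growth factors and cytokines rose and 4 fell, and the median of the 29 was 0.91 against 0.63 with it. Without line 4716-11, 3 growth factors and cytokines and 1 senescence gene were called up, and Gdf15, Mmp3 and Cxcl1 lost their calls.

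**Figure D3:**
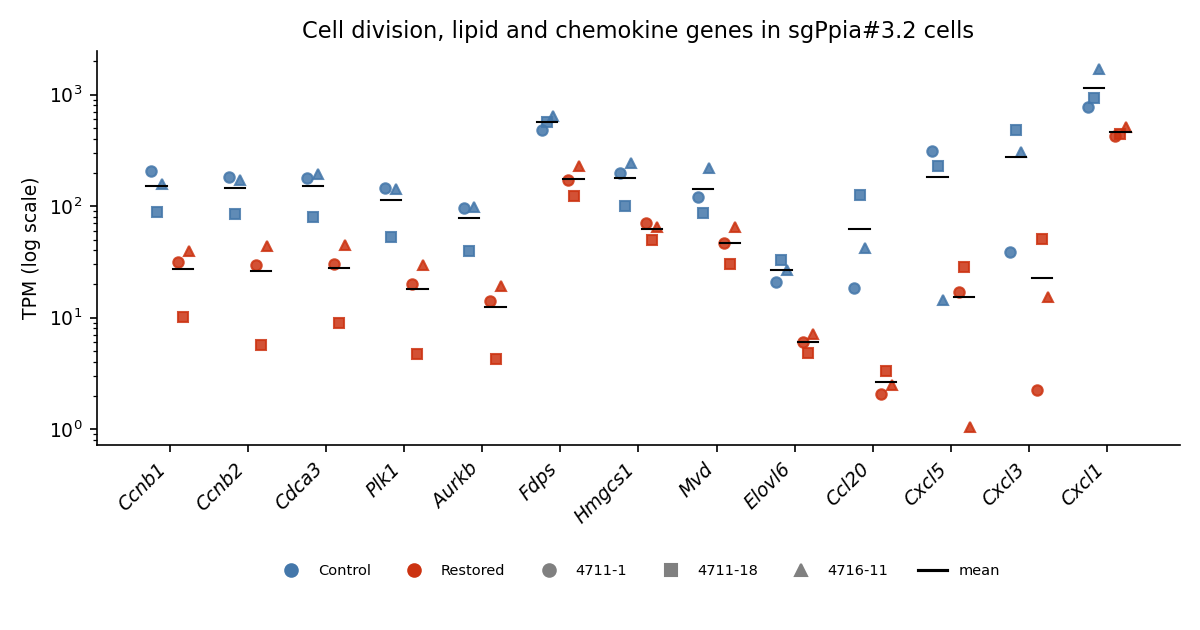
TPM (log axis) of 13 genes that fell, from cell division (left), lipid synthesis (middle) and chemokines (right). Each symbol is 1 sample, its shape gives the cell line, blue is Control, red is Restored and the bar is the mean of 3 lines. Line 4711-18 (squares) is lowest for the division genes in both groups, and for Cxcl5 and Cxcl3 the groups overlap because the lines start from different levels.

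Lysosome and autophagy genes rose in part. Of 35 measured 7 rose (20%, against 6.65% of all genes) and 0 fell, with a median of 0.53, and 34 had a positive estimate. Ctsd (cathepsin D), the main aspartic protease of lysosomes, went from 659.9, 741.5 and 804.8 TPM to 2070, 2885 and 2804 TPM, by 1.802 ± 0.17 (adjusted p = 5.41e-06). Tpp1, a lysosomal peptidase, rose by 1.91 ± 0.15 and Tmem43, a membrane protein, by 1.69 ± 0.15. Atg9b, a lipid scramblase of autophagy, went from 5.42, 4.78 and 1.44 TPM to 274.6, 87.3 and 78.9 TPM, by 4.797 ± 0.22. Without line 4711-18, 8 rose.

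Of 12 necroptosis and pyroptosis genes 2 rose (16.7%, against 6.65% of all genes) and 0 fell, with a median of 0.36. Cyld, a deubiquitinase that lets RIPK1 signal, went from 20.2, 22.95 and 21.7 TPM to 41.6, 62.0 and 64.8 TPM, by 1.31 ± 0.16. Il18, an interleukin released in pyroptosis, was at 6.61, 0.639 and 2.62 TPM in Control and 10.6, 3.91 and 5.51 TPM in Restored samples. Its estimate of 1.01 ± 0.24 was called with overlapping groups, and the call was lost without the block (adjusted p = 0.39), after rescaling and without line 4711-18, when 1 gene of the 12 was called. Of 18 genes tied to the permeability pore 0 were called in limma, against 6.65% up and 2.31% down of all genes. Those shares give few calls in so short a list. At an unadjusted p under 0.05, 4 fell, and the median was -0.19. The most abundant of them, Tspo, an outer membrane protein, was at 1361, 1748 and 2356 TPM in Control and 969.1, 1402 and 1565 TPM in Restored samples (-0.47 ± 0.12, adjusted p = 0.0088, under the minimum size). Atp5b, the beta subunit of ATP synthase, had an estimate of -0.22 ± 0.14. Of 16 cyclophilins 0 were called in limma, again beside 6.65% up and 2.31% down of all genes, so the 0 is near those shares. At an unadjusted p under 0.05, 5 rose and 3 fell, and the median was 0.07, or -0.12 after rescaling. Without line 4711-18, 0 genes of the pore and 0 cyclophilins were called. Ppib (cyclophilin B), the most abundant after Ppia, was at 212.6, 168.1 and 196.2 TPM in Control and 164.1, 171.8 and 175.6 TPM in Restored samples (-0.17 ± 0.11, adjusted p = 0.25).

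Of 19 ferroptosis and iron genes 2 rose (10.5%, against 6.65% of all genes) and 1 fell (5.26%, against 2.31%), and the median of 0.05 became -0.15 after rescaling. Hmox1, which breaks down heme, went from 241.6, 386.2 and 160.5 TPM to 1314, 891.2 and 790.9 TPM, by 1.98 ± 0.34 (adjusted p = 7.23e-04). Gclc, the catalytic subunit of the first enzyme of glutathione synthesis, went from 65.8, 71.5 and 80.4 TPM to 170.9, 345.6 and 366.5 TPM, by 1.93 ± 0.27. Slc40a1 (ferroportin), which exports iron, changed by -1.005 ± 0.26, and its call was lost without line 4711-18 (adjusted p = 0.14), when 3 genes of the list rose and 0 fell.

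One antigen presentation gene stood far above the rest of its list. Tap1, which carries peptides into the endoplasmic reticulum, was at 0.764, 0.990 and 2.98 TPM in Control and 27.9, 35.4 and 53.03 TPM in Restored samples. It rose by 4.00 ± 0.21 (adjusted p = 2.66e-08) with no overlap. The median of the 15 genes was 0.18, which became -0.01 after rescaling, and 3 rose (20%, against 6.65% of all genes). The others were Erap1, a peptide-trimming enzyme (1.06 ± 0.14), which was no longer called after rescaling, and Psmb9, a subunit of the immunoproteasome. Psmb9 had qualified through the Restored samples alone, and without it 2 of 14 rose. Without line 4711-18, Erap1 lost its call and 2 rose, Psmb9 among them. Of 20 interferon response genes 4 rose (20%, against 6.65% of all genes) and 0 fell, with a median of 0.59. Parp10, an ADP-ribosyltransferase, went from 4.94, 9.89 and 7.14 TPM to 26.4, 45.7 and 45.6 TPM, by 2.27 ± 0.26. Trafd1, a brake on innate signalling, rose by 1.95 ± 0.18, Ifit3 by 1.30 ± 0.29 and Ifi35 by 1.23 ± 0.14. Groups overlapped for Ifit3, which lost its call without the block (adjusted p = 0.43) and without line 4716-11. Without line 4711-18, 5 interferon genes rose.

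Most ribosome biogenesis genes had small negative estimates. Of 28 genes 27 had a negative estimate and the median was -0.47, but 2 fell (7.14%, against 2.31% of all genes) and 1 rose (3.57%, against 6.65%) by the call rule. At an unadjusted p under 0.05, 26 fell and 1 rose. Dkc1, the pseudouridine synthase of small nucleolar complexes, went from 80.7, 57.5 and 69.9 TPM to 33.3, 21.6 and 29.8 TPM, by -1.27 ± 0.19. Npm3, a nucleoplasmin, changed by -1.08 ± 0.20 and Utp20, a processome component, rose by 1.16 ± 0.15. Calls of Npm3 and Utp20 were lost without line 4711-18, when 0 rose and 1 fell, and that of Utp20 after rescaling. Of 10 MYC network genes 1 rose (10%, against 6.65% of all genes) and 2 fell (20%, against 2.31%), with a median of -0.05, and without line 4711-18 again 1 rose and 2 fell. Mycl, a MYC family member often amplified in SCLC, went from 4.27, 4.81 and 3.88 TPM to 0.821, 0.553 and 0.574 TPM, and had qualified through the Control samples alone, and without it 1 of the other 9 rose and 1 fell. Mxd1, an antagonist of MYC, rose by 1.504 ± 0.24. Mxd3, another MAX partner, changed by -1.34 ± 0.39 with overlapping groups, and its call was lost without the block (adjusted p = 0.19). Without line 4716-11, Mxd3 and Npm3 were not called and 0 MYC network genes were called down, and without 4711-1 Mxd3 was not.

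Of 13 measured SCLC lineage genes 3 rose (23.1%, against 6.65% of all genes) and 0 fell, with a median of 0.23, and without line 4711-18 again 3 rose. Hes6, a relative of the Notch target HES1, went from 54.8, 98.6 and 83.8 TPM to 153.0, 418.2 and 307.8 TPM, by 1.801 ± 0.24 (adjusted p = 1.12e-04). Notch1 rose by 1.75 ± 0.26 with overlapping groups, and Hes1 by 1.43 ± 0.42. Notch1 lost its call without the block (adjusted p = 0.18). Of 19 epithelial genes 1 rose and 1 fell (5.26% each, against 6.65% and 2.31% of all genes), with and without line 4711-18, and the median was -0.28. St14, the surface protease matriptase, was at 0.137, 0.347 and 0.157 TPM in Control and 13.9, 16.3 and 3.88 TPM in Restored samples, and since it had qualified through the latter alone, 0 of the other 18 rose. Ehf, an epithelial transcription factor, changed by -1.12 ± 0.39, and its call was lost without the block (adjusted p = 0.30), without line 4711-1 and without 4716-11. The call of Hes1 was lost without 4716-11. Of 15 markers of other cell types 1 was measured above the threshold. This was Cd68, a lysosomal protein used to mark macrophages, which went from 1.997, 7.13 and 2.77 TPM to 30.4, 24.9 and 31.8 TPM, by 2.73 ± 0.30. The macrophage and leukocyte genes Adgre1 and Ptprc were at or below 0.0631 TPM in the same samples.

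**Figure D4:**
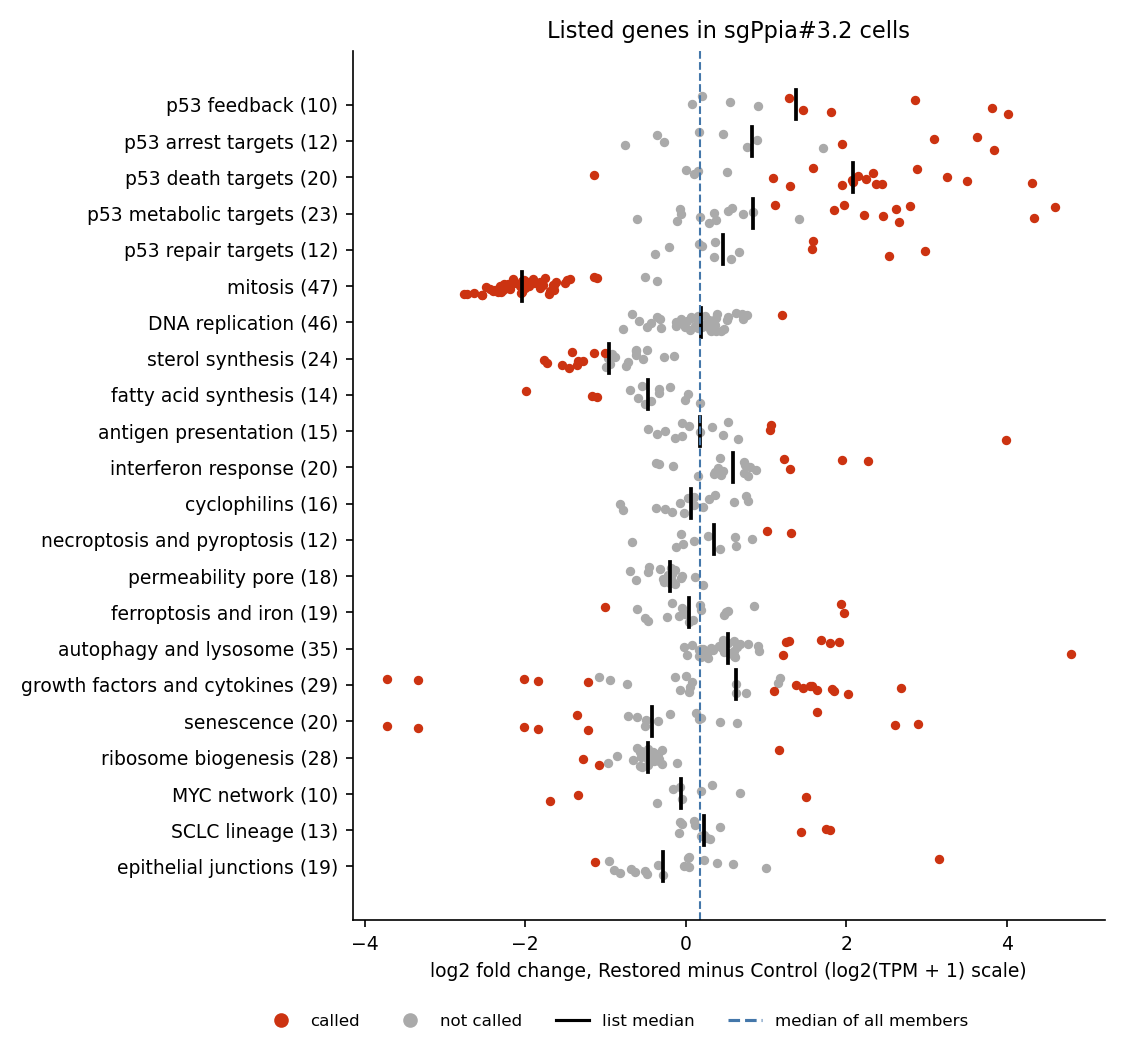
Log2 fold change (Restored minus Control, log2(TPM + 1) scale) of every measured member of 22 gene lists, with the number measured in parentheses. Red points passed the call rule, grey points did not, the black bar is the list's median and the dashed blue line is the median of all 11901 genes, 0.17. Mitosis genes lie left of the line as a block, DNA replication genes straddle it, and 15 of the 20 p53 death targets are red points to its right, with Bok the red point to its left.

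Among the genes with the largest rises were several with no place in the lists. Sytl1, a synaptotagmin-like protein of vesicle traffic, went from 0.558, 1.27 and 1.21 TPM to 39.0, 86.2 and 83.9 TPM, by 5.07 ± 0.27 (adjusted p = 2.62e-08). Inka2, an inhibitor of the kinase PAK4, rose by 4.72 ± 0.19, from 1.36, 1.71 and 0.739 TPM to 57.3, 70.3 and 47.7 TPM. Ptp4a3, a phosphatase, rose by 4.65 ± 0.34, and Sulf2, a heparan sulfatase, by 4.48 ± 0.31. Cd80, a costimulatory ligand for T cells, was at 0.279, 0.931 and 0.434 TPM in Control and 23.97, 28.2 and 46.9 TPM in Restored samples. Ms4a10, a membrane protein, was likewise under 1 TPM in each Control sample. Among the largest falls outside the lists were Sapcd2, a regulator of spindle orientation (-2.75 ± 0.35), Pimreg, a mitotic regulator (-2.55 ± 0.46), and Vsig1, a junction protein of stomach epithelium (-2.59 ± 0.32).

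By gain in transcript share among called genes the order was different. Sprr1a, a cornified envelope protein, gained most, from 2416, 711.4 and 1033 TPM to 5135, 6532 and 4406 TPM. Its log2 fold change was 2.13 ± 0.73 (adjusted p = 0.037), the lines differed widely, and the call was lost without the block (adjusted p = 0.13), after rescaling and without line 4716-11. Cdkn1a, Ctsd and Gdf15 followed, and Gsto1, a glutathione transferase, went from 809.6, 509.5 and 819.2 TPM to 1790, 1433 and 3085 TPM. The largest loss of a called gene was in H2az1, the histone variant H2A.Z, from 1378, 1633 and 1795 TPM to 550.6, 773.5 and 860.0 TPM (-1.15 ± 0.16, adjusted p = 1.97e-04). Lgals2, a galectin, went from 442.7, 265.4 and 877.5 TPM to 179.8, 65.7 and 107.0 TPM, and its call was lost without line 4716-11. Cxcl1, Fdps and Scd2 complete the 5 largest losses among called genes.

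Among genes called up the median change was 1.34, 1.43 and 1.53 in 4711-1, 4711-18 and 4716-11, and among genes called down -1.44, -1.60 and -1.46. Some called genes differed strongly in size. Lilr4b, a leukocyte receptor, went from 0.855 to 42.6 TPM in 4711-1 but from 2.71 to 4.74 TPM in 4711-18 and from 0.739 to 6.48 TPM in 4716-11. Ces2e, a carboxylesterase, reached 439.5 TPM in 4716-11 against 25.0 and 23.2 TPM in the other lines. Nectin4, an adhesion molecule, followed the same order of lines as Ces2e at the top, with 40.2 TPM in 4716-11 against 6.95 and 2.74 TPM.

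Other differences lay in the Control samples. Mmp15, a membrane-type metalloproteinase, was at 66.0, 54.3 and 56.0 TPM in Restored but at 14.8, 1.61 and 0.472 TPM in Control samples. Hpgd, which breaks down prostaglandins, was at 7.48, 1.78 and 56.4 TPM in Control and 0.870, 0.982 and 2.04 TPM in Restored samples. Cxcl2 was at 1.52, 20.5 and 1.22 TPM in Control and 0.230, 0.653 and 0.291 TPM in Restored samples. With 1 sample per line and condition these differences between lines have no test. Calls of Lilr4b and Hpgd were lost without the block (adjusted p = 0.088 and 0.17), and were also lost without 4711-1 and without 4716-11.

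**Figure D5:**
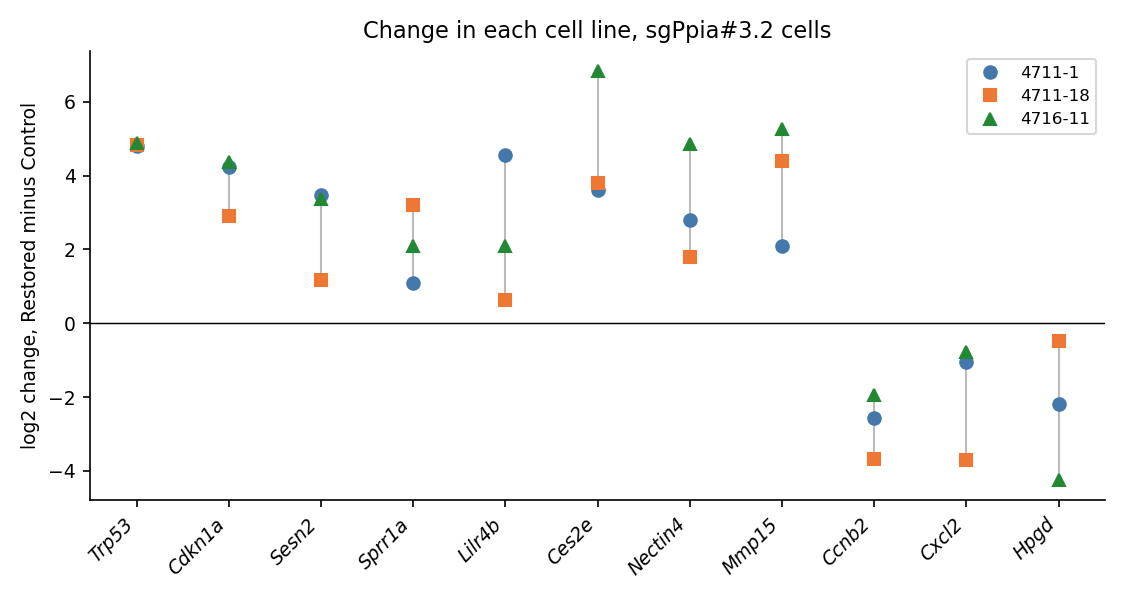
Log2 change (Restored minus Control, log2(TPM + 1) scale) of 11 genes in each cell line, 1 symbol per line, joined by a grey bar. Nectin4 and Cxcl2 had qualified through 1 group alone and are shown as values without a test, and the others were called. Trp53 changed almost equally in the 3 lines (4.799, 4.82 and 4.87), whereas Lilr4b (4.56, 0.63 and 2.11), Ces2e (3.61, 3.80 and 6.83) and Hpgd (-2.18, -0.49 and -4.24) did not.

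The response was then compared with that of the same lines carrying sgBgal or sgPpia#4.1, as the difference between the log2 fold changes. Of the 12828 genes tested, 0 passed an adjusted p of 0.05 in limma for either difference, with 175 against sgBgal and 124 against sgPpia#4.1 at an unadjusted p under 0.05. For Cdkn1a the difference from sgBgal was -0.51 on the log2 scale (95% interval -1.28 to 0.27), and for Fas it was 0.77 (-0.15 to 1.69). By line the Cdkn1a rise with sgPpia#3.2 was 4.24, 2.91 and 4.37, so it was low in 4711-18 alone. The sgPpia#3.2 Control sample of 4711-18, which stood apart from its group, was at 369.2 TPM of Cdkn1a, against 153.9 TPM with sgBgal. Its part in the difference was not tested. For Trp53 the difference was 0.20 (-0.21 to 0.61), for Plk1 0.38 (-1.16 to 1.91) and for Fdps 0.22 (-0.58 to 1.02). The intervals of Cdkn1a, Fas, Plk1 and Fdps include differences above 1 in size, so the test does not show that the responses were alike.

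The gene with the smallest unadjusted p in both comparisons was Muc1, a membrane mucin. With sgPpia#3.2 it was at 14.1, 12.3 and 5.42 TPM in Control and 8.07, 8.34 and 3.99 TPM in Restored samples, a change of -0.54 ± 0.15, against -1.62 with each of sgBgal and sgPpia#4.1. The difference was 1.08 from sgBgal (95% interval 0.63 to 1.54, unadjusted p = 1.84e-04) and 1.08 from sgPpia#4.1 (0.63 to 1.54), and neither passed the adjustment (adjusted p = 1.00 in limma). Next against sgBgal came Slc2a4rg-ps (a pseudogene, difference 0.60), the acute phase protein Saa3 (1.75, in a gene that had qualified through the Control samples alone), the liver pyruvate kinase Pklr (1.11) and the antiproliferative Btg3 (-0.73). Against sgPpia#4.1 the receptor Tlr2 (1.06) and Ropn1l (0.61) followed. None of these passed the adjustment.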

How the data were processed

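The authors deposited TPM for 25239 gene symbols in 18 samples. The submitters' processing notes name bcl2fastq 2.17, HISAT2 and both mm10 and GRCm39; the counter and the annotation are not given in the sources used here. The columns have equal sums and hold no read totals, so depth and counting error are unknown. Here limma 3.58.1 (R 4.3.3, lmFit and eBayes) was run on log2(TPM + 1) over all 18 samples, with 6 condition means and cell line as a block, on the 12828 genes with at least 1 TPM in 3 samples. P-values were Benjamini-Hochberg adjusted over these genes. Same-line Control and Restored samples deviated together (correlations 0.77, 0.77 and 0.78), and the labels give the lines. The fit was checked on simulated data. Promoter windows came from RefSeq (GRCm38.p6). The genes described, the gene lists and the tests were chosen with earlier results of these data known. Named genes were Trp53, Ppia and Cdkn1a, up to 4 called genes per list by size of change (or the 2 most abundant where none was called), the 10 largest rises and falls, the 5 largest gains and losses in TPM among called genes, the 6 whose lines differed most and the 5 smallest p-values per difference, leaving out unnamed clones and microRNA genes. Samples of different lines are the replicates.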

Additional observations from a re-analysis of the deposited data

How the results depend on the processing

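The counts of genes called rested most on the minimum fold change and the pairing by cell line. With the adjusted p alone, 4212 genes were called, 3117 up and 1095 down. With no replicate block, 728 were called, of which 562 rose and 166 fell. Over the fits that left out 1 line, 798 to 1111 genes were called, 601 to 845 up and 197 to 278 down, the lowest values without line 4716-11. A pseudocount of 0.1 gave 1341 calls and median-of-ratios rescaling 965, of which 843 were shared with the calls as deposited. None of the alternatives in which the difference could be fitted gave a gene whose response differed from that with sgBgal or sgPpia#4.1. The cause was not tested. TPM without read totals limit what can be said of genes near 1 TPM. Of the genes named, 21 lost their call with no replicate block, 6 without line 4711-1, 8 without line 4711-18 and 19 without line 4716-11. Among uncalled genes, Ppia ranged from -0.13 to 0.13 and Btg3 from -0.22 to 0.003 when 1 line was left out.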
